A study of Mus musculus with 2 samples.

Results

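The mitochondrial genome and its nuclear copies were described in total RNA from gastrocnemius, a calf muscle rich in fast fibres. Members were all 37 genes whose symbol begins with mt- in the M21 gene set, together with the pseudogenes Gm28661, Gm28437, Gm10925 and Gm10222, which makes 41 of the 55536 annotated genes. The 37 genes were 2 ribosomal RNAs, 13 protein genes and 22 tRNAs, and they were the complete set annotated on chromosome M. The rule uses names and no measured level, but it was set with earlier results of these data known.

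The tissue came from adult male mice of 8 to 10 months labelled 5xFAD/CAST, a cross of the 5xFAD line with the CAST strain. 5xFAD mice carry transgenes driven by the neuronal Thy1 promoter and serve as a model of amyloid deposition, and CAST mice descend from the subspecies Mus musculus castaneus. The sources used here do not say which strain was the mother, from which a cross inherits its mitochondrial genome, and the deposited tables name 1 reference copy of each mitochondrial gene. There was 1 group with 2 libraries, replicates 1 and 2, both filed under the same donor entry, so no comparison between groups and no p-value can be made. Each mean ± SD below is over these n = 2 libraries, which may not be separate animals, so the SD may be technical. Gene totals were 35163970 expected counts in replicate 1 and 35412240 in replicate 2. The skeletal fibre markers used for the tissue check, Acta1, Ckm, Myh4, Tnnt3 and Atp2a1, had between 11625 and 18503 TPM, whereas the heart markers Myh6, Tnnt2, Nppa and Myl7 had 56.7, 1.86, 0.145 and 0.115 TPM and the brown fat markers Cidea and Ucp1 had 0.36 and 0 TPM. In bulk tissue, fewer mitochondria or fibres and less RNA in each cannot be told apart.

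Mitochondria carry a small circular genome that is transcribed from both strands into long precursors. The tRNAs lie between the other genes, and their excision frees the mature ribosomal RNAs and messenger RNAs. The proteins encoded there are core subunits of respiratory complexes I, III and IV and of the ATP synthase, complex V, on which oxidative muscle depends. Pieces of this genome have been inserted into nuclear chromosomes during evolution, and annotated pieces are listed as pseudogenes. A read from such a piece has the same letters as a read from the mitochondrion where the copies do not differ.

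The 4 pseudogenes lie close to each other on the reverse strand of chromosome 1 in mm10. Together with 3 further annotated pseudogenes, Gm29216, Gm28438 and Gm28439, they span a stretch of 4663 bases, chr1:24611535-24616197, with gaps between some of them. Its genes run in the mitochondrial order: Gm29216 matches mt-Co1, Gm28661 mt-Co2, Gm10925 mt-Atp6, Gm28437 mt-Co3, Gm28438 mt-Nd3, Gm10222 mt-Nd4l and Gm28439 mt-Nd4. The sum of the chromosome M and chromosome 1 coordinates of a matching base was 24622578 for the first 5 of these pairs and 24622577 for the last pair and for mt-Nd4l, so the order and spacing were kept apart from a shift of 1 base.

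The annotated sequences of the 4 pseudogenes contain no base that differs from the mitochondrial gene. The pairs are mt-Co2 (ENSMUSG00000064354.1) with Gm28661 (ENSMUSG00000102070.1), mt-Atp6 (ENSMUSG00000064357.1) with Gm10925 (ENSMUSG00000100862.1), mt-Co3 (ENSMUSG00000064358.1) with Gm28437 (ENSMUSG00000101111.1) and mt-Nd4l (ENSMUSG00000065947.3) with Gm10222 (ENSMUSG00000067736.2). Gm28661 aligned with mt-Co2 over 681 bases, Gm10925 with mt-Atp6 over 678, Gm28437 with mt-Co3 over 783 and Gm10222 with mt-Nd4l over 294, each at 100% identity and without a gap. The mitochondrial gene model was longer only at its 3′ end, by 3 bases for mt-Co2, mt-Atp6 and mt-Nd4l and by 1 base for mt-Co3. The ends of the 4 pairs, from the M21 transcript sequences on mm10, are shown because the capitals mark the bases beyond the annotated end of the pseudogene, which are the only sequence by which the 2 gene models of a pair can be told apart. The stretches are chrM:7657-7696 and chr1:24614885-24614921 for the first pair, chrM:8568-8607 and chr1:24613974-24614010 for the second, chrM:9351-9390 and chr1:24613189-24613227 for the third, and chrM:10134-10173 and chr1:24612407-24612443 for the last, forward strand on chromosome M and reverse strand on chromosome 1.
mt-Co2: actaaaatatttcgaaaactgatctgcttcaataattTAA
Gm28661: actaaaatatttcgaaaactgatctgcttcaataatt
mt-Atp6: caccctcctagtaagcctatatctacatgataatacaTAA
Gm10925: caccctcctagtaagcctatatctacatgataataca
mt-Co3: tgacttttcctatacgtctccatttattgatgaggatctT
Gm28437: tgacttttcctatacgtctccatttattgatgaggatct
mt-Nd4l: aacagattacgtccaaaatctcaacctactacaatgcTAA
Gm10222: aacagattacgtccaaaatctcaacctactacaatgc

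In 3 pairs the capitals are the stop codon TAA of the mitochondrial gene. In mt-Co3 the capital is the single T that ends the gene model, which in mammals is completed to a stop codon by the poly(A) tail. Of the 585 windows of 100 bases in mt-Co2, 582 also occurred in Gm28661, and all 582 windows of Gm28661 occurred in mt-Co2. The share of windows of the mitochondrial gene that also occurred in the pseudogene was 99.5% for mt-Co2 and for mt-Atp6, 99.9% for mt-Co3 and 98.5% for mt-Nd4l. Most reads of these pairs therefore carry no base that assigns them to either gene, and the deposited tables divide them by a model.

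The other copies in the stretch differ from their genes or cover only part of them. Gm28438 and mt-Nd3 differ at the third base of the gene, T3C counted from 1 at the first base of mt-Nd3, which is shown in capitals below (chrM:9459-9480 forward and chr1:24613098-24613119 reverse). Gm28439 is identical to the first 876 of the 1378 bases of mt-Nd4. Gm29216 covers the last 492 of the 1545 bases of mt-Co1 and differs from it at 6 bases, the substitutions T1056A, C1057T, A1059G, A1060G, C1062A and A1066T counted from the first base of mt-Co1, all within its first 13 aligned bases.
mt-Nd3: atTaacctgtacactgttatct
Gm28438: atCaacctgtacactgttatct

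**Figure D1:**
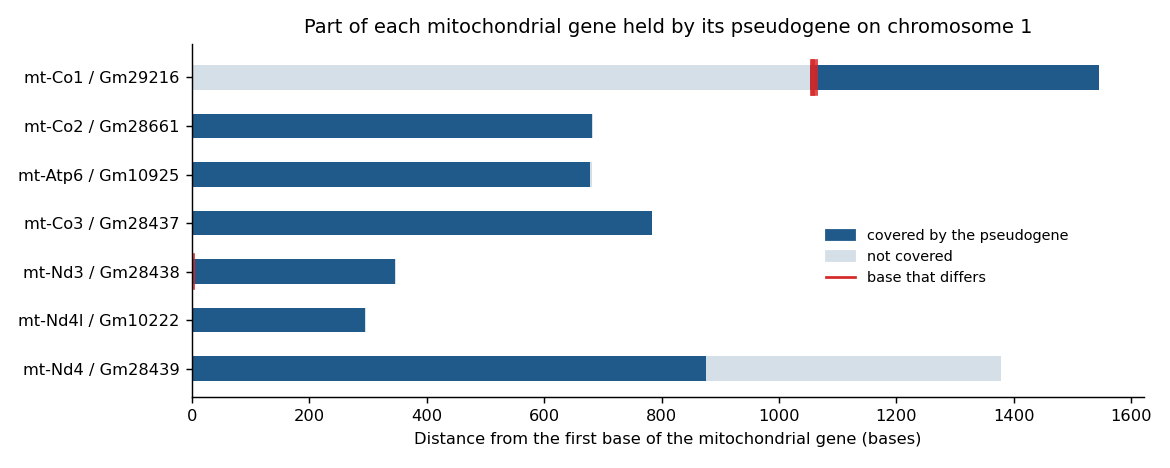
Length of 7 mitochondrial genes in bases from their first base (bars), with the part covered by the pseudogene on chromosome 1 in dark blue, the part not covered in pale blue and each differing base as a red line. The pseudogenes of mt-Co2, mt-Atp6, mt-Co3 and mt-Nd4l cover all but the last 1 to 3 bases with no difference, while Gm29216 covers 492 of the 1545 bases of mt-Co1 and Gm28439 covers 876 of the 1378 bases of mt-Nd4.

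Mitochondrial RNA was a large component of the libraries, and most of it was ribosomal. The 37 genes held 15.7% and 16.3% of the expected counts of genes in replicates 1 and 2 of the RSEM table, in which reads matching more than 1 gene are shared out by a model. The 2 ribosomal RNAs held 10.9 ± 0.43% of all gene counts and 68.1 ± 0.87% of the mitochondrial counts. The 13 protein genes held 5.12 ± 0.004%, the 4 pseudogenes another 2.18 ± 0.023% and the 22 tRNAs 0%. In the kallisto-layout table, the second deposited quantification of the same reads, the ribosomal RNAs held 10.8 ± 0.43% of gene counts, the protein genes 5.99 ± 0.02% and the pseudogenes 0.847 ± 0.12%. The protein genes and pseudogenes together held 7.29 ± 0.027% in the RSEM table and 6.83 ± 0.10% in the kallisto-layout table.

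The pseudogene part of this sum differed far more between the tables than the sum did. Pseudogenes took 29.8 ± 0.20% of the joint counts of protein genes and pseudogenes in the RSEM table and 12.4 ± 1.6% in the kallisto-layout table. Of the 20 genes of highest mean TPM, 7 were members in the RSEM table and 6 in the kallisto-layout table. TPM is the deposited abundance scaled for transcript length, so levels of different genes are compared on it below.

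The large ribosomal RNA gene mt-Rnr2, which encodes the 16S RNA of the mitochondrial ribosome, was the highest member. It had 71721 and 70619 TPM in replicates 1 and 2 of the RSEM table (chrM:1094-2675). The small ribosomal RNA gene mt-Rnr1, which encodes the 12S RNA (chrM:70-1024), had 46391 and 48669 TPM. By mean RSEM TPM over all annotated genes, mt-Rnr2 had rank 3 and mt-Rnr1 rank 4. No nuclear protein-coding gene had a higher mean TPM than either. The level of mt-Rnr2 exceeded that of mt-Rnr1 1.55 and 1.45 fold in replicates 1 and 2 of the RSEM table and 1.87 and 1.73 fold in the kallisto-layout table, so the size of this gap depended on the table, while its direction was the same in every library and table.

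The level of mt-Rnr2 was 13.4 ± 0.20 times the median of the 13 protein genes, which stood at 5299 ± 20 TPM. In the kallisto-layout table it was 12.3 ± 0.22 times their median of 5884 ± 12 TPM. The libraries were depleted of ribosomal RNA, per the spike-in label, and the sources used here do not say how far the depletion reached mitochondrial ribosomal RNA. These levels are therefore what the depleted libraries held.

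The 7 subunits of complex I, the NADH dehydrogenase that feeds electrons into the chain, spanned from mt-Nd6 to mt-Nd1. Their most abundant member mt-Nd1 had 8858 and 8535 TPM in replicates 1 and 2 of the RSEM table. Next came mt-Nd4l with 6285 and 6464 TPM, mt-Nd4 with 5815 and 5927 TPM and mt-Nd2 with 4947 and 5023 TPM. These values were followed by mt-Nd3 with 4395 and 4430 TPM and mt-Nd5 with 4379 and 4097 TPM. In this order mt-Nd4l lay above mt-Nd4 in both libraries and both tables, and mt-Nd3 likewise lay above mt-Nd5 in all of them. The order as a whole was not kept in the kallisto-layout table. There mt-Nd4l lay above mt-Nd1 in replicate 1, 8768 against 8013 TPM, and below it in replicate 2, 6815 against 8207 TPM. The means of mt-Nd3 and mt-Nd5, 4413 ± 25 and 4238 ± 199 TPM in the RSEM table, differed by less than the SD of mt-Nd5, whereas in the kallisto-layout table mt-Nd3 had 5893 and 5044 TPM and mt-Nd5 had 4071 and 3956 TPM.

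The lowest complex I gene was mt-Nd6, the only protein gene on the reverse strand of chromosome M (13552 to 14070), the strand that also holds 8 of the 22 tRNAs. It had 885 and 733 TPM in the RSEM table and 1005 and 889 TPM in the kallisto-layout table. Its neighbour on the other strand, mt-Nd5, with which it shares 14 bases, stood 5.27 ± 0.45 fold above it in the RSEM table and 4.25 ± 0.28 fold in the kallisto-layout table. The only reverse-strand protein gene thus made up 1.08 ± 0.12% of the TPM of the 13 protein genes in the RSEM table and 1.01 ± 0.072% in the kallisto-layout table. It was below each of the other complex I genes in both libraries and both tables.

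Complex III has a single mitochondrial subunit, cytochrome b, encoded by mt-Cytb (chrM:14145-15288). It had 10028 and 9767 TPM in the RSEM table and 9939 and 9960 TPM in the kallisto-layout table. Of the 22015 nuclear protein-coding genes, 8 had a higher mean TPM in the RSEM table. Reads of this gene were almost undivided, and both tables and both libraries put it at nearly the same level.

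The 3 subunits of complex IV, cytochrome c oxidase, were listed at very unequal levels, although they form the catalytic core together. The level of mt-Co1, the subunit that holds the site of oxygen reduction, was 17006.5 and 15145 TPM in the RSEM table (chrM:5328-6872), and 3 nuclear protein-coding genes had a higher mean. The level of mt-Co2 (chrM:7013-7696), which receives electrons from cytochrome c, was 392 and 551 TPM. The level of mt-Co3 (chrM:8607-9390) was 1730 and 1878 TPM. As listed, mt-Co2 was the lowest protein gene of the mitochondrial genome in the RSEM table, below mt-Nd6 in both libraries.

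Their identical pseudogenes were listed near the level of mt-Co1. Gm28661, the copy of mt-Co2, had 18051 and 16693 TPM in the RSEM table, and only 1 nuclear protein-coding gene had a higher mean. Gm28437, the copy of mt-Co3, had 15718 and 14276 TPM. Added to its pseudogene, mt-Co2 reached 18443 and 17244 TPM, and mt-Co3 with its pseudogene reached 17448 and 16154 TPM. The 3 complex IV genes then lay between 15145 and 18443 TPM in the RSEM table.

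The 2 mitochondrial subunits of complex V are encoded by mt-Atp6, part of the proton channel, and mt-Atp8, a short membrane protein. In mammals they are carried on the same messenger RNA, and in this annotation they share 43 bases. In the RSEM table mt-Atp6 had 6046 and 5313 TPM and its pseudogene Gm10925 had 15365 and 15048 TPM, which sum to 21411 and 20361 TPM. The level of mt-Atp8 was 5285 and 5610 TPM there. The sum of mt-Atp6 and Gm10925 therefore exceeded mt-Atp8 3.84 ± 0.30 fold, and mt-Atp6 as listed was 1.05 ± 0.14 times mt-Atp8.

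The kallisto-layout table left mt-Atp8 almost without reads. It gave the gene 42 and 10 estimated counts in replicates 1 and 2, or 24.3 and 4.52 TPM, whereas the RSEM table gave it 14053 and 15847 expected counts. The posterior SD of these RSEM counts, a deposited measure of how uncertain the division of reads is, was 0 in both libraries. Gm10925 holds a copy of the 43 bases shared with mt-Atp6. The search kept only the longest match, of at least 100 bases, of each M21 gene outside chromosome M, and none was to mt-Atp8. Other matches of those genes and unannotated sequence, such as that between Gm10925 and Gm28661 on chromosome 1, were not examined. Whether mt-Atp8 has a nuclear copy there was not tested. The sequence of mt-Atp8 (chrM:7766-7969, forward strand, M21 transcript on mm10) is printed to show how much of this short gene, in capitals, is also the start of mt-Atp6.
mt-Atp8: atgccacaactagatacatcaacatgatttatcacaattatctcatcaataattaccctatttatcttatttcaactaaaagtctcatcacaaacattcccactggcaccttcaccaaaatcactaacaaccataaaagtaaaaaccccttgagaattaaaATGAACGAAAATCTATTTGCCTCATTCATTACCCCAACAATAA

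The gene is 204 bases long, the shortest of the protein genes, and its effective length was 104 bases in the RSEM table and 53.9 and 67.7 bases in the kallisto-layout table. Effective length is the number of positions at which a fragment can start, so short genes depend most on the fragment length that a program assumes. The part of this difference in the result was not tested. The other pair carried on a shared messenger RNA in mammals, mt-Nd4l and mt-Nd4, with an overlap of 7 bases, stood at a ratio of 1.09 ± 0.007 in the RSEM table and 1.37 ± 0.29 in the kallisto-layout table.

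**Figure D2:**
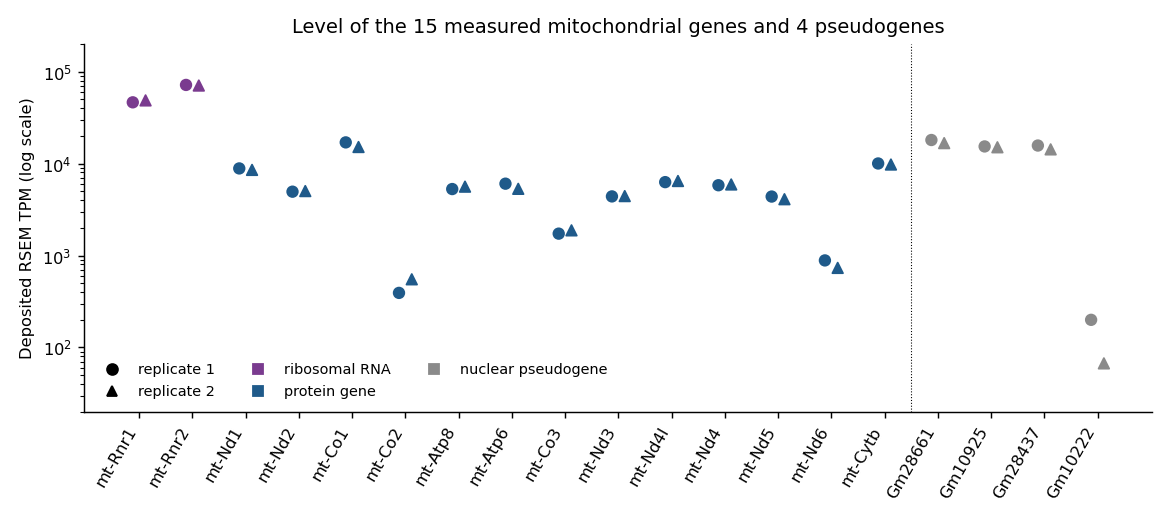
Deposited RSEM TPM on a log scale for the 15 measured mitochondrial genes in genome order and, right of the dotted line, the 4 nuclear pseudogenes; circles are replicate 1, triangles replicate 2, and colours give the class. The ribosomal RNAs lie highest, mt-Co2 with 392 and 551 TPM lies lowest of the mitochondrial genes, and 3 pseudogenes lie between 14276 and 18051 TPM.

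With each identical pseudogene added to its gene, mt-Co1, mt-Co2, mt-Atp6 and mt-Co3 stood above the other protein genes. Apart from mt-Atp8, the tables then came close together. The 4 genes of the stretch from mt-Co1 to mt-Co3 other than mt-Atp8 then had between 15145 and 21411 TPM in the RSEM table and between 15045 and 18800 TPM in the kallisto-layout table. The 9 other protein genes, with mt-Nd4l added to Gm10222, reached at most 10028 TPM in the RSEM table and 9960 TPM in the kallisto-layout table. These ranges did not overlap in either table. The 4 genes were grouped with their levels known. mt-Atp8 lies in the same stretch but is counted among the 9, at 5285 and 5610 TPM in the RSEM table. The gap therefore describes these values and is no test. As listed, without their pseudogenes, mt-Atp6 and mt-Co3 lay within the range of those 9 genes in the RSEM table and mt-Co2 below it, and mt-Co2 and mt-Co3 lay within it in the kallisto-layout table.

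Of the 41 members, 19 had a mean of at least 1 TPM in either table and the other 22, the tRNAs, did not. Of these 19, 7 were at least 2-fold apart between the tables, 36.8%, against 6.76% of the 11885 genes tested. The median log2 ratio of RSEM to kallisto-layout TPM was -0.01 over the 19 members and 0.01 over all genes tested. The 7 members lay in both directions. They were mt-Co2, mt-Atp6 and mt-Co3, lower in the RSEM table, and mt-Atp8, Gm10925, Gm28437 and Gm10222, higher in it. Gm10222 entered only through its RSEM level and so had to differ. Both genes of a pair divide the same reads, so the 7 are not independent of each other. Gm28437 was called on the mean of its log2 ratios, which was under the line in replicate 1, at 0.96.

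The largest gaps with reads in both tables were those of mt-Atp8 and Gm10925. For mt-Atp8 the log2 ratio was 7.76 in replicate 1 and 10.25 in replicate 2, a size that rests on the few counts in the kallisto-layout table. Gm10925 had 15365 and 15048 TPM in the RSEM table against 337 and 691 TPM in the kallisto-layout table, log2 ratios of 5.51 and 4.44. Its partner mt-Atp6 had 6046 and 5313 TPM in the RSEM table against 18463 and 17561 TPM in the kallisto-layout one, log2 ratios of -1.61 and -1.72. Within this pair the tables thus disagreed on which gene was the higher, in both libraries.

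The values of mt-Co2 were 392 and 551 TPM in the RSEM table and 2743 and 3392 TPM in the kallisto-layout one, log2 ratios of -2.81 and -2.62. For mt-Co3 they were 1730 and 1878 TPM in the RSEM table against 8071.5 and 9955 TPM in the kallisto-layout one, log2 ratios of -2.22 and -2.41. Gm28437 had log2 ratios of 0.96 and 1.49, and Gm28661 of 0.35 and 0.37. Both tables placed Gm28661 above mt-Co2 in both libraries. Gm10222 had 200 and 67.1 TPM in the RSEM table but a listed value of 0 in the kallisto-layout table.

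Sums of a gene and its identical pseudogene were nearly the same in the 2 tables. The log2 ratio of the sums was 0.11 for mt-Co2 with Gm28661, 0.17 for mt-Atp6 with Gm10925, 0.11 for mt-Co3 with Gm28437 and -0.26 for mt-Nd4l with Gm10222. The 8 protein genes with no identical pseudogene, leaving out mt-Atp8, had ratios between -0.31 and 0.10. The sums thus lay about as close together as these 8 genes, while mt-Atp8, which has no annotated identical pseudogene, was far apart. Some of the 8 also share sequence with a pseudogene. Of their windows of 100 bases, 97.6% of mt-Nd3 occurred in Gm28438, 60.8% of mt-Nd4 in Gm28439 and 26.3% of mt-Co1 in Gm29216.

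**Figure D3:**
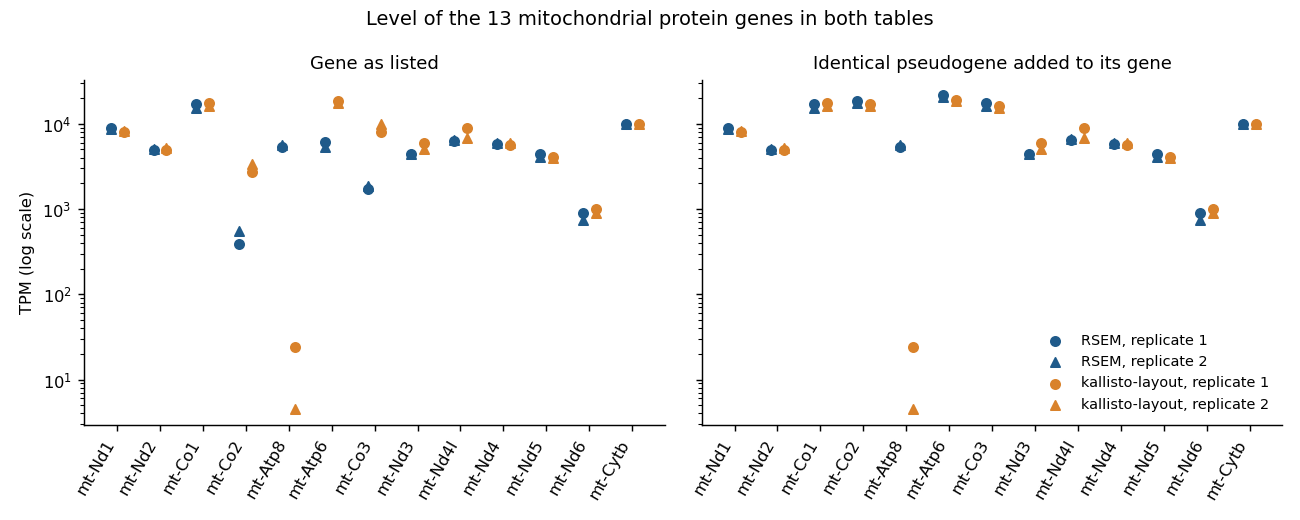
TPM on a log scale of the 13 mitochondrial protein genes in genome order in the RSEM table (blue) and the kallisto-layout table (orange), replicate 1 as circles and replicate 2 as triangles; the left panel shows genes as listed and the right panel adds the identical pseudogene to mt-Co2, mt-Atp6, mt-Co3 and mt-Nd4l. Adding it brings mt-Co2, mt-Atp6 and mt-Co3 to between 15045 and 21411 TPM in both tables, while mt-Atp8 stays at 24.3 and 4.52 TPM in the kallisto-layout table.

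Counts of each pair show the division directly. In the RSEM table mt-Co2 had 5855 and 8742 counts and Gm28661 had 268163 and 263404, so the pseudogene held 97.9% and 96.8% of the pair. In the kallisto-layout table it held 83.6% and 79.0%. For mt-Co3 and Gm28437 the pseudogene held 90.1% and 88.4% in the RSEM table and 49.9% and 33.8% in the kallisto-layout table. The pseudogene was thus listed with most of the reads of these pairs in the RSEM table, although the sequences printed above differ only in their last bases.

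For mt-Atp6 and Gm10925 the pseudogene held 71.7% and 73.8% in the RSEM table and 1.78% and 3.76% in the kallisto-layout table. For mt-Nd4l and Gm10222 it held 3.03% and 1.01% in the RSEM table and 0% in both libraries of the kallisto-layout table. Wilson 95% intervals of these shares were within 0.186 percentage points of the share, and they cover counting error only, not the uncertainty of the division. Identical pairs were therefore divided in very different proportions, between pairs and between tables.

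The 3 other copies in the same stretch differed in what they were given. Gm28439, identical to a part of mt-Nd4, had 0 counts in the RSEM table in both libraries, and Gm28438, which differs from mt-Nd3 at a single base, also had 0. In the kallisto-layout table they had 0 and 0, and 11 and 2 counts. Gm29216, with 6279 and 5399 TPM in the RSEM table and 3446 and 3718 TPM in the kallisto-layout table, was listed near the median protein gene in the RSEM table. Although it covers 492 of the 1545 bases of mt-Co1, it took 9.10% and 8.82% of the joint counts with mt-Co1 in the RSEM table and 3.85% and 4.37% in the kallisto-layout table.

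**Figure D4:**
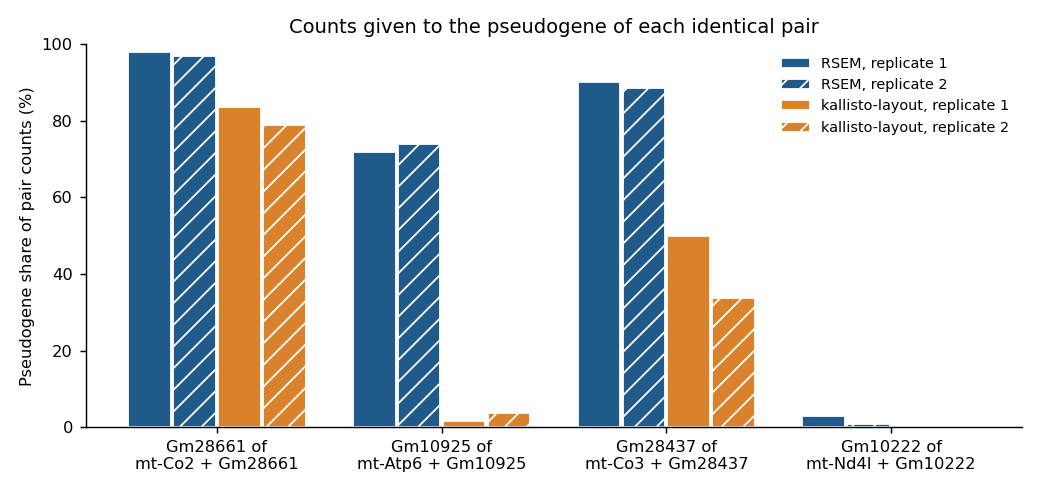
Share of the joint counts of each identical pair that was given to the nuclear pseudogene, in percent, for the RSEM table (blue) and the kallisto-layout table (orange), plain bars for replicate 1 and hatched bars for replicate 2. Gm10925 holds 71.7% and 73.8% in the RSEM table but 1.78% and 3.76% in the kallisto-layout table, and Gm10222 holds at most 3.03% in any library.

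In each pair, the deposited posterior SD was the same or nearly the same number of counts for both genes. It therefore had to be a larger part of the count for the gene given the smaller share. It was 64.3% and 53.5% of the count of mt-Co2 in replicates 1 and 2, 31.2% and 30.2% for mt-Co3 and 5.04% and 5.77% for mt-Atp6. For Gm10222 it exceeded the count itself, at 117% and 249%. Of the 19 members with counts, these 4 were those in which it exceeded 5% of the count in either library. It was 1.40% and 1.77% for Gm28661, 1.99% and 2.05% for Gm10925, 3.44% and 3.98% for Gm28437 and 3.66% and 2.54% for mt-Nd4l. For the 11 other measured mitochondrial genes it was at most 1% in both libraries. The SD of mt-Co3, 9452 counts in replicate 1, was the same as that of Gm28437, and mt-Nd4l and Gm10222 likewise shared an SD of 1159 counts.

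Most genes of the mitochondrial genome were slightly lower in replicate 1 than in replicate 2 of the RSEM table on the TMM scale, which sets the bulk of genes equal. The median log2 ratio of replicate 1 to replicate 2 was -0.15 over the 13 protein genes, 10 of which were below 0, against 0.00 over the 9741 genes that averaged 100 counts or more. It was -0.21 for mt-Rnr1 and -0.12 for mt-Rnr2. On deposited TPM, where the median of these genes was 0.13, the median of the 13 protein genes was -0.01, which is lower than the bulk of genes by about the same amount. With library totals the median of the 13 was -0.0883, with 4 of the 13 above 0, and on kallisto-layout counts -0.0424, with 6 of the 13 above 0, so the size and the tally depended on the scale and table. The difference between 2 libraries has no replicate check.

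Small differences between the libraries on this scale were also seen in fibre markers, and larger ones in some markers of other cell types. None of the 5 skeletal fibre markers was above 0. Acta1 stood at -0.12, Myh4 and Tnnt3 at -0.11, Ckm at -0.04 and Atp2a1 at -0.02. Their summed TPM, however, was 78419 in replicate 1 and 75523 in replicate 2. Of the adipocyte markers 3 of 4 were higher in replicate 1, with a summed 189 TPM against 142 in replicate 2, and Cfd was lower. All 3 endothelial markers were higher, with 37.7 TPM against 25.3, and both erythroid markers, with 275 TPM against 210.0. Of the leukocyte markers 2 of 3 were higher, with 24.0 TPM against 22.7. Their part in the mitochondrial ratios was not tested.

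Protein genes with no identical pseudogene, apart from mt-Atp8, differed little between the libraries. These 8 genes had log2 ratios between -0.17 for mt-Nd4 and 0.13 for mt-Nd6 in the RSEM table and between -0.16 and 0.13 in the kallisto-layout table. mt-Nd6 had 9476 and 8343 counts and the ratio 0.13 (exact binomial 95% interval 0.09 to 0.17), which was the highest of these ratios in both tables. mt-Co1 had 628340 and 594360 counts, which gave a ratio of 0.03. All 8 lay well within 1.5-fold of equality.

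Members of identical pairs were the ones past 1.5-fold in the RSEM table. There, 2 of 19 members were at least 1.5-fold apart, against 1.22% of the 9741 genes tested. They were mt-Co2 with a log2 ratio of -0.63 (interval -0.68 to -0.58) and Gm10222, whose 990 and 353 counts gave 1.43 (1.26 to 1.62). These intervals cover counting error only, not the uncertainty of the division. The posterior SD was 64.3% and 53.5% of the mt-Co2 counts and 117% and 249% of the Gm10222 counts. With library totals, with totals over other genes or on deposited TPM, mt-Co2 stood at -0.57, -0.58 and -0.49, under the 1.5-fold line.

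In the kallisto-layout table, of 17 members that averaged 100 counts or more, 2 were past 1.5-fold, against 1.20% of the 9977 genes tested there. They were Gm10925, whose 4893 and 9999 counts gave -1.10, and Gm28437, whose 144242 and 91110 counts gave 0.60. The same genes stood at -0.11 and 0.00 in the RSEM table. Below that minimum, mt-Atp8 stood at 1.95 (interval 0.99 to 3.16) on its 42 and 10 counts, and at -0.23 in the RSEM table. The log2 ratios of the pair sums lay between -0.15 and -0.03 in the RSEM table and between -0.02 and 0.11 in the kallisto-layout table, so no sum was past 1.5-fold in either.

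**Figure D5:**
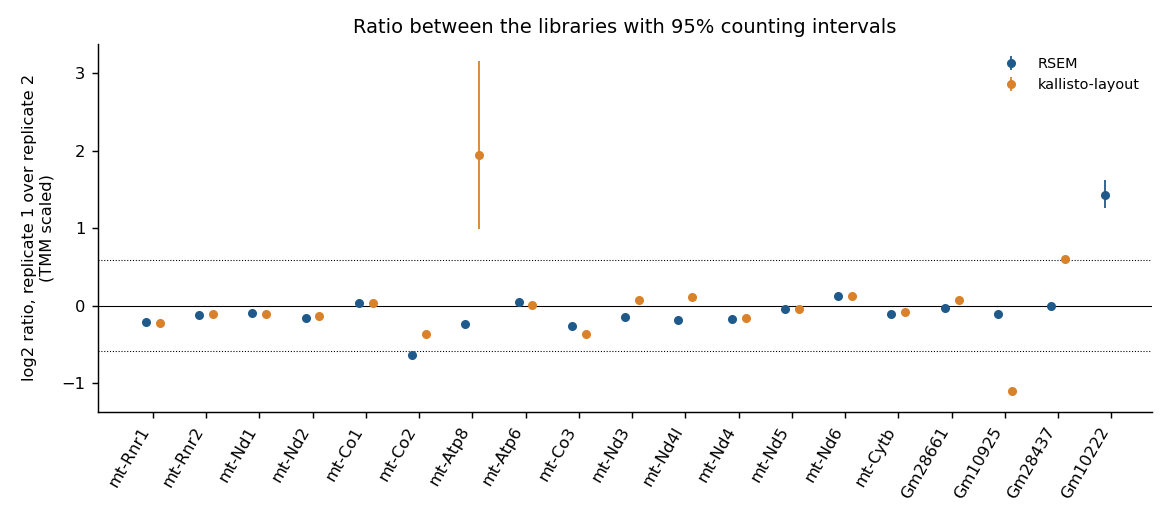
log2 ratio of replicate 1 to replicate 2 after TMM scaling for 15 mitochondrial genes and 4 pseudogenes in the RSEM table (blue) and the kallisto-layout table (orange), with exact binomial 95% intervals of counting error as bars and dotted lines at 1.5-fold. Past the lines lie mt-Co2 and Gm10222 in the RSEM table, and Gm10925, Gm28437 and mt-Atp8, whose ratio rests on 42 and 10 counts, in the kallisto-layout table.

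None of the 22 mitochondrial tRNA genes had a count in either table. They are mt-Tf, mt-Tv, mt-Tl1, mt-Ti, mt-Tq, mt-Tm, mt-Tw, mt-Ta, mt-Tn, mt-Tc, mt-Ty, mt-Ts1, mt-Td, mt-Tk, mt-Tg, mt-Tr, mt-Th, mt-Ts2, mt-Tl2, mt-Te, mt-Tt and mt-Tp, each the carrier of an amino acid for mitochondrial protein synthesis. They are 59 to 75 bases long, from mt-Ts2 to mt-Tl1. Their effective length was 0 in the RSEM table, which sets it to the length less 100 bases, and 21.3 to 30.0 bases in the kallisto-layout table. All 2452 annotated genes with an effective length of 0 had 0 counts in the RSEM table, and all 1027 genes of at most 75 bases had 0 counts in the kallisto-layout table. A 0 for a tRNA here therefore sets no upper limit on its amount.

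Nuclear genes that maintain, transcribe and process the mitochondrial genome were expressed at far lower levels than its products. Of 54 listed genes 53 were found in the annotation, and 49 reached 1 TPM in each library. The median of the 53 was 6.25 ± 0.757 TPM. In the RSEM table the highest was Fastk, a regulator of mt-Nd6 RNA, at 83.1 ± 0.59 TPM. Slirp, a partner of the messenger RNA stabiliser LRPPRC, followed at 62.5 ± 1.75 TPM. Grsf1, an RNA granule protein that binds mt-Nd6 RNA, had 51.2 ± 1.81 TPM. In the kallisto-layout table these 3 genes had means of 68.2, 77.6 and 73.4 TPM, so their order changed. Since these 3 were picked as the highest, every other listed gene had to be lower. The core transcription factors lay above the median of the list. The mitochondrial RNA polymerase Polrmt had 13.2 ± 2.70 TPM, Tfam, which packages the genome, 20.2 ± 0.77 TPM and Tfb2m 21.6 ± 4.6 TPM.

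Of the 48 listed genes that averaged 100 counts or more, 0 were at least 1.5-fold apart between the libraries in the RSEM table, where 1.22% of all genes were, and their median log2 ratio was -0.03. Of the 50 with at least 1 TPM in either table, 0 were at least 2-fold apart between the tables, where 6.76% of all genes were.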

How the data were processed

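Total RNA from 2 libraries of 300 ng input was measured. Per the file headers, the deposited gene table holds expected counts, TPM and the posterior SD of counts in the RSEM layout, and the deposited transcript table in the kallisto layout holds estimated counts and TPM, summed here per gene. Effective lengths are as deposited. Assembly mm10 and annotation M21 are per the labels that accompany the files, and the sources used here do not name the aligner. Members and lists were chosen with earlier results of these data known.

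Spike-ins and other sequences (0.527% and 0.474% of counts) were left out. Ratios between libraries used rounded counts, with TMM factors (edgeR 4.0.16) from genes averaging 10 counts or more and 0.5 counts added to each value. Ratios between tables used TPM with a pseudocount of 0.1. Intervals cover counting error only, and reads are not independent molecules. M21 transcripts were searched with blastn 2.17.0 (at least 90% identity over 100 bases) and aligned pairwise with Biopython 1.88. The scaling step was tested on simulated data. Named were all members and, of the processing list, the 3 highest genes and any 1.5-fold apart. Polrmt, Tfam and Tfb2m were named by role after their values were seen, and Prorp is not a symbol of this annotation. Other settings tried were size factors of DESeq2 1.42.0, scaling by library totals, totals without the members, TPM, other minimums and pseudocounts, and each library alone.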

Additional observations from a re-analysis of the deposited data

How the results depend on the processing

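The mitochondrial share of counts, 16.0%, was 19.5% on deposited TPM and 16.8% on kallisto-layout counts, and, chosen after seeing the data, 18.2% with the 4 pseudogenes added and 17.6% with them added in the kallisto-layout table. The ribosomal share of mitochondrial counts, 68.1%, was 64.4% on kallisto-layout counts, 63.3% per kilobase and 59.9% with the pseudogenes added. On kallisto-layout counts the pseudogene share of a pair was 81.3% for Gm28661, 2.77% for Gm10925, 41.9% for Gm28437 and 0% for Gm10222, against 97.3%, 72.7%, 89.2% and 2.02% on RSEM counts. The median log2 ratio between libraries of the 13 protein genes was -0.15 after TMM, -0.0883 with library totals, -0.0983 with totals without the members, -0.0424 on kallisto-layout counts and -0.0114 on deposited TPM. The count of 7 members 2-fold apart between the tables was 7 with no minimum and with a minimum of 10 TPM. Added to the identical partner, the log2 ratio between tables became 0.11 for mt-Co2, 0.17 for mt-Atp6, 0.11 for mt-Co3 and -0.26 for Gm10222. Each was on the other side of 0 from the gene alone. Their partners Gm28661, Gm10925, Gm28437 and mt-Nd4l kept their side. The partners of a pair lay on opposite sides of 0 and share the same sum, so such a change had to occur in each pair. For each library alone, the shares and the ratios between tables of the 7 members kept their direction. Of 132 ratios between libraries recomputed for single members, 63 stayed within the counting interval and 69 moved beyond it. mt-Co2 and Gm10222, past 1.5-fold after TMM, kept their direction wherever a ratio could be computed, and smaller ratios such as that of mt-Nd3 (-0.15 in the RSEM table, 0.07 in the kallisto-layout table) did not all do so. The cause was not tested. mt-Atp8 had 14053 and 15847 counts in the RSEM table and 42 and 10 in the kallisto-layout table.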

Other observations

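Other annotated copies of mitochondrial genes in the nuclear genome had few counts, apart from Gm29216. Of the M21 genes outside chromosome M, 17 matched a mitochondrial gene over at least 100 bases at 90% identity or more, 7 of them in the stretch on chromosome 1. Of the 13 that are not among the 4 pseudogenes described above, 3 reached 1 TPM in both libraries. These were Gm29216 and a pair of neighbours on chromosome 2. Gm13340 matched mt-Co1 at 97.6% identity and had 149 and 129 expected counts in the RSEM table, against 418.5 and 359.8 estimated counts in the kallisto-layout table. Gm13341 matched mt-Co2 at 95.9% identity and had 152 and 122 expected counts in the RSEM table, against 321 and 21.9 estimated counts in the kallisto-layout table. The 10 others had at most 3 expected counts in a library.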
